A study of Mus musculus with 8 samples.

Results

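The 10 genes described here are widely used markers of tissue macrophages: C1qa, C1qb, C1qc, Csf1r, Cx3cr1, Adgre1, Mrc1, Cd68, Fcrls and Lyz2. They were chosen by symbol, and each matched 1 row of the deposited table, so 10 of its 55536 genes are covered. The tissue was the pair of posterior palatal shelves, dissected from E14.5 mouse embryos before elevation and holding both epithelium and mesenchyme. The 4 control libraries came from Yapfl/fl;Tazfl/fl embryos labelled as controls, and the 4 mutant libraries from Yapfl/fl;Tazfl/fl;Col2Cre embryos. All 8 therefore carry the floxed alleles, and the label of the mutants adds the Col2Cre transgene, a Cre recombinase driven by regulatory sequence of the cartilage collagen gene Col2a1. The labels do not say in which shelf cells the Cre had acted, nor whether each library came from a separate embryo, so a p-value here reflects only how these libraries scatter. The comparison asks whether macrophage messages differed in shelves of embryos that carried Col2Cre.

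Macrophages of the embryo arise largely from yolk sac and fetal liver progenitors, settle in nearly every organ, and clear dying cells and debris while tissues are shaped. Their survival depends on the receptor CSF1R and its ligands CSF1 and IL-34, and their identity on the transcription factor PU.1. They are also a main source of C1q, the recognition molecule of the classical complement pathway, which binds dying cells and immune complexes.

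All 10 genes were detected in every library, and none passed the limma test between the groups, which 0.024% of all genes tested did (4 of 16647). Of the 10, 7 had a higher and 3 a lower mean log2 level in mutants, and the median difference was 0.09 on the log2 scale. Over all genes tested, 8317 of 16647 (50%) had a higher mean in mutants. Fcrls and C1qa had the largest positive differences (both 0.35 on the log2 scale) and Mrc1 the largest negative one (-0.25). The genes did not move as a block across libraries, with Pearson's r of their log2 values from -0.34 to 0.84 over 45 pairs. Between the groups, C1qa and Mrc1 differed in opposite directions, and the control and mutant values of each gene overlapped. In bulk tissue, fewer macrophages and less of a message per macrophage cannot be told apart.

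Promoter sequence was at hand for 7 of the 10 genes from RefSeq on GRCm38.p6, covering 250 bases before to 50 bases after the annotated start. The 4 shown are the neighbouring complement genes C1qb and C1qc and the genes that lay at opposite ends of the comparison, Fcrls and Mrc1. They run 5′ to 3′ on the gene's strand, with capitals marking GAGGAA or its reverse complement TTCCTC, the core letters of PU.1 sites. C1qb lies at chr4:136886151-136886450 on the minus strand, C1qc at chr4:136892865-136893164 on the minus strand, Fcrls at chr3:87263475-87263774 on the minus strand and Mrc1 at chr2:14229164-14229463 on the plus strand.
C1qb: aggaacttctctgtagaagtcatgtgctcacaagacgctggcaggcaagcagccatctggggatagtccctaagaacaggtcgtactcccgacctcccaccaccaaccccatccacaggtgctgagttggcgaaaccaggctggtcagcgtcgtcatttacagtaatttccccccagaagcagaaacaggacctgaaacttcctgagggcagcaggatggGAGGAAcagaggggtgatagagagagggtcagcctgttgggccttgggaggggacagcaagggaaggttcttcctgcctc
C1qc: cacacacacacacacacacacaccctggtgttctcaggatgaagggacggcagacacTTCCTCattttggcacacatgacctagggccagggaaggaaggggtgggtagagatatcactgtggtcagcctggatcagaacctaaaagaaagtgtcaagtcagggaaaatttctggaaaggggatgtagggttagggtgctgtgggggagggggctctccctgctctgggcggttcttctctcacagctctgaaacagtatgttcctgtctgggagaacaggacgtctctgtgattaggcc
Fcrls: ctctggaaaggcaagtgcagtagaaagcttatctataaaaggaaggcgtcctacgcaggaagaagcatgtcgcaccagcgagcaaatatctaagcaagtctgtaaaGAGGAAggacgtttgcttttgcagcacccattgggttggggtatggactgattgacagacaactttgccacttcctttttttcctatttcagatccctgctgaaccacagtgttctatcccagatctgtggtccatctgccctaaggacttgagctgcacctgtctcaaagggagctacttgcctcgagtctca
Mrc1: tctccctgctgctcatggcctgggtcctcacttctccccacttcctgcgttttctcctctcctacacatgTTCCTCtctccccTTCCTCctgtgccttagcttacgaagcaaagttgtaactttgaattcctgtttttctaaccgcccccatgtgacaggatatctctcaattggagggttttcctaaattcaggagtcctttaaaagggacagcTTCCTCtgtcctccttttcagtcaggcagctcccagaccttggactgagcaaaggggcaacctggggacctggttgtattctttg

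These letters occurred once each in the C1qb, C1qc and Fcrls windows and 3 times in that of Mrc1. Counting both strands, 5 of the 7 windows held GAGGAA, as did 28.3% of all 32851 promoter windows in the table, and the 5 were C1qb, C1qc, Mrc1, Cd68 and Fcrls. The windows of Cx3cr1 and Lyz2 did not hold it. AGGAAG, which overlaps GAGGAA by all but its last letter, was in 5 of the 7 (C1qb, C1qc, Mrc1, Fcrls and Lyz2) and in 35.4% of all windows. TGACTCA, the AP-1 site, was in that of Cd68 alone and in 5.20% of all windows, TATAAA, the TATA box, in that of Fcrls alone and in 13.6%, and TTGCAA, a C/EBP core, in none of the 7 and in 6.20%. The motifs were picked after the expression values were known, and a match is a run of letters, not a measured binding site.

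Depth was even, with 29025089 to 32437977 reads per library recovered from the table. Yap1 had 9094.6 to 10086.2 normalised counts across the control libraries and 8221.2 to 8745.0 across the mutants, without overlap, and Wwtr1, which encodes TAZ, had 4448.6 to 5305.2 and 3649.9 to 4574.3, with overlap. Their differences were -0.18 and -0.29 on the log2 scale (limma adjusted p = 0.751 for both), and the counts cover whole genes, so they check a deletion of floxed exons only in part. Mesenchymal genes of the palate were abundant in every library, with the posterior marker Tbx22 between 1033.1 and 1949.1 normalised counts, and so were epithelial keratins, with Krt14 between 4675.9 and 10065.5. Mutant replicate 2 stood apart in its summed marker genes. Its palatal mesenchyme, endothelial and lymphatic endothelial sums were the lowest of the 8 libraries (mesenchyme 247103 normalised counts). So were its sums of perivascular and scavenger macrophage genes (3519.8), microglia genes (4148.3) and osteoclast genes (3427.1). Its sum of the 10 macrophage genes was also lowest (4417.9), but close to that of control replicate 2 (4420.2). Its epithelial and erythroid sums were the highest (60459.4 and 58648.8). A single gene with a mean of 172900 normalised counts weighs heavily in the mesenchyme sum. The median log2 difference of the mesenchyme list was -0.018, and -0.039 without this library. Whether the library held less mesenchyme was not tested. Reads of the ribosomal RNA locus Gm42418 also moved with genotype, taking 4.22% to 5.66% of the reads in controls and 1.56% to 2.49% in mutants. Neither the summed marker genes nor the Gm42418 share was tested as a part of the macrophage differences. Without mutant replicate 2 the difference of Mrc1 was -0.13 in place of -0.25 on the log2 scale, that of Adgre1 0.05 in place of -0.03 and that of Cd68 0.093 in place of 0.03.

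The 3 C1q chains assemble into one protein, and their genes sit side by side on chromosome 4 within 18675 bp. C1qb spans 136880129 to 136886187, C1qc 136889804 to 136893065 and C1qa 136895917 to 136898803 in the table's coordinates, all on the minus strand. The gaps between neighbouring genes are 3616 and 2851 bp.

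C1qa (ENSMUSG00000036887) had 355.6, 280.2, 402.2 and 324.1 normalised counts in control replicates 1 to 4 and 433.7, 387.1, 450.6 and 460.2 in mutant replicates 1 to 4. Of the mutant libraries 3 lay above all controls, and the other, mutant replicate 2, lay below control replicate 3. The means were 341 ± 51.5 and 433 ± 32.4 (SD, n = 4 each). The log2 difference was 0.35 (SE 0.139, 95% interval 0.05 to 0.66, limma adjusted p = 0.754). C1qa and Mrc1 were the 2 of 10 genes with an unadjusted p under 0.05, a level that 6.57% of all tested genes reached.

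C1qb (ENSMUSG00000036905) had 577.1, 559.4, 473.0 and 602.0 normalised counts in the controls and 649.6, 534.7, 705.3 and 610.9 in the mutants. Mutants 1, 3 and 4 were above every control, while mutant replicate 2 was below 3 of them. Its log2 difference was 0.18 (SE 0.119, 95% interval -0.08 to 0.44, limma adjusted p = 0.808), and 0.10 without control replicate 3.

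C1qc (ENSMUSG00000036896) gave 337.5, 336.8, 379.6 and 498.9 normalised counts in the control libraries and 363.7, 403.2, 460.2 and 390.4 in mutants. The highest of the 8 values belonged to control replicate 4, and the mutants lay among the controls. Its log2 difference was 0.07 (SE 0.151, 95% interval -0.26 to 0.40, limma adjusted p = 0.953). It was 0.20 without control replicate 4, but 0.0088 when mutant replicate 3 was left out, 0.011 when control replicate 2 was and 0.012 when control replicate 1 was.

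The 3 chains thus differed in size of difference, although their genes are neighbours and their proteins are used together. Whether these differences differ from one another was not tested. The ratio of C1qb to C1qa counts, in which the size factor cancels, ran from 1.18 in control replicate 3 to 1.996 in control replicate 2, and from 1.33 to 1.57 in mutants, so the mutant range lay inside the control range.

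**Figure D1:**
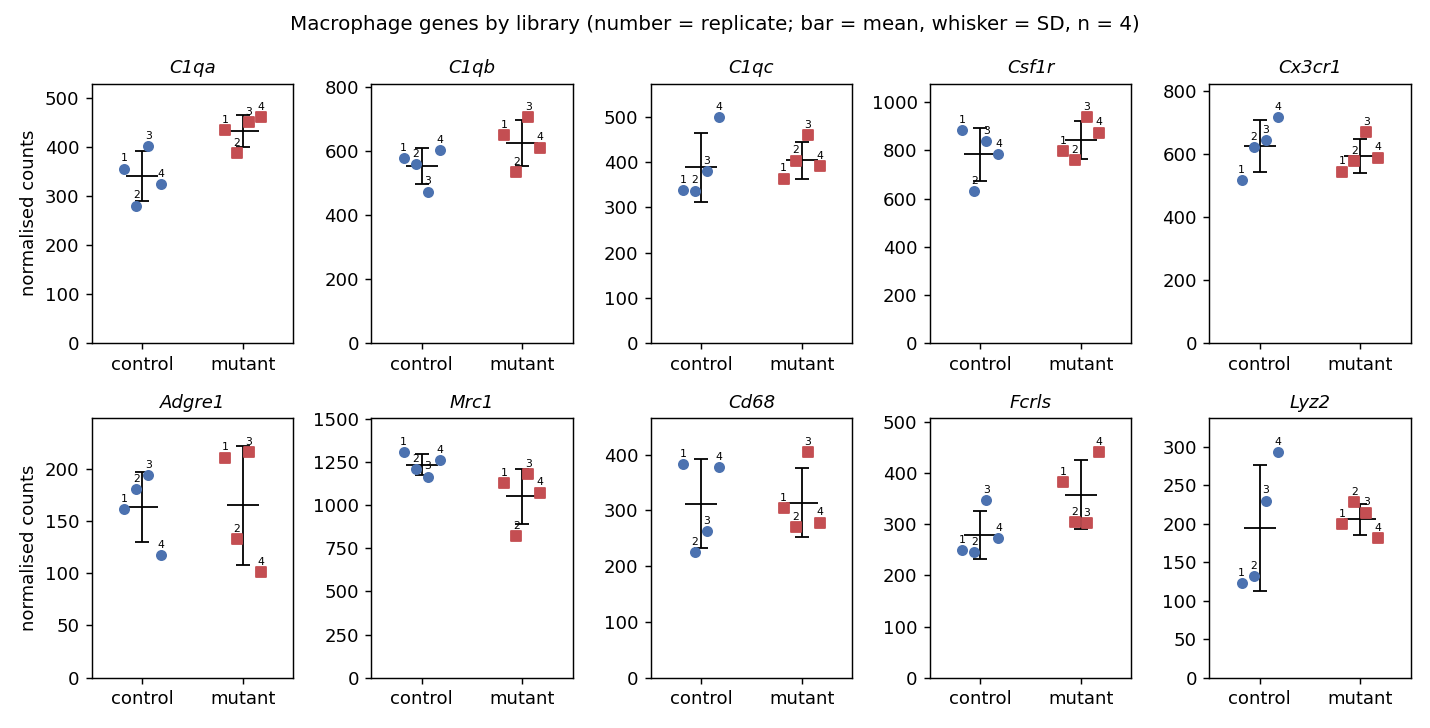
Normalised counts (y axis, from 0) of the 10 macrophage genes in 4 control and 4 mutant libraries, 1 point per library with its replicate number, bars for the mean and whiskers for the SD. The groups overlap in every panel; C1qa and Fcrls have higher means in mutants and Mrc1 a lower one.

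Among the surface receptors, Csf1r and Cx3cr1 receive the signals that keep and place macrophages. Csf1r (ENSMUSG00000024621, chromosome 18 from 61105572 to 61132149), the receptor for CSF1 and IL-34, had 882.7, 630.6, 837.2 and 783.7 normalised counts in the control libraries and 798.4, 760.9, 936.8 and 873.9 in mutants. Only mutant replicate 3 was above all controls, and only control replicate 2 was below all mutants. The log2 difference was 0.11 (SE 0.117, 95% interval -0.14 to 0.37, limma adjusted p = 0.886), and 0.011 without control replicate 2 or 0.059 without mutant replicate 3.

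Cx3cr1 (ENSMUSG00000052336, chromosome 9 from 119901616 to 120069879), the receptor for the chemokine fractalkine, had 517.5, 622.8, 643.3 and 715.9 normalised counts in the control libraries and 543.6, 576.4, 669.6 and 588.7 in mutants. All 4 mutant values lay inside the control range. Its log2 difference was -0.07 (SE 0.119, 95% interval -0.33 to 0.19, limma adjusted p = 0.942). It was -0.15 without control replicate 1 and 0.0023 without control replicate 4.

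The ligands of these receptors were measured in the same shelves. Csf1 had 1088.2, 1181.2, 1233.2 and 1324.8 normalised counts in the control libraries and 1217.5, 1043.9, 1052.6 and 1092.4 in mutants, which differed by -0.13 on the log2 scale (SE 0.0859, limma adjusted p = 0.805). Cx3cl1, which encodes fractalkine, had 398.2, 348.5, 388.8 and 583.3 in controls and 442.5, 523.4, 398.5 and 522.9 in mutants, which differed by 0.15 on the log2 scale (SE 0.168, limma adjusted p = 0.890), and 0.31 without control replicate 4. Il34 was at 0 to 4.90 normalised counts in all libraries and was not tested, so of both CSF1R ligands only Csf1 was detected at a level that could be compared. The groups overlapped for all 3 ligands.

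Adgre1 (ENSMUSG00000004730, chromosome 17 from 57358686 to 57483529) encodes F4/80, the classical surface antigen of mouse macrophages. It had 161.9, 180.6, 193.9 and 117.8 normalised counts in the control libraries and 211.0, 132.5, 216.1 and 101.1 in mutants. Mutant replicates 1 and 3 were above all controls and mutant replicate 4 below all of them, so the spread within mutants covered the controls. The log2 difference was -0.03 (SE 0.276, 95% interval -0.63 to 0.57, limma adjusted p = 0.989), and its sign changed with the method, to 0.018 in edgeR and 0.016 in DESeq2 on recovered reads. Single libraries also turned it, with values from -0.18 without control replicate 4 or mutant replicate 3 to 0.18 without mutant replicate 4.

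Mrc1 (ENSMUSG00000026712, chromosome 2 from 14229392 to 14332057) encodes CD206, the mannose receptor that takes up glycoproteins. It is also known from lymphatic endothelium. It had 1307.6, 1207.5, 1165.5 and 1260.9 normalised counts in the control libraries and 1128.0, 821.5, 1181.9 and 1073.2 in mutants. Of the mutants 3 were below every control, and mutant replicate 3 was above the lowest control. The means were 1235 ± 62.0 and 1051 ± 159 (SD, n = 4 each). The log2 difference was -0.25 (SE 0.110, 95% interval -0.48 to -0.01, limma adjusted p = 0.754). Without mutant replicate 2, the lowest library, the difference was -0.13. Endothelial markers were lower alongside: 9 of 10 endothelial genes (summed 18985.8 to 21115.1 normalised counts over controls and 14597 to 19061.3 over mutants) and 4 of 5 tested lymphatic endothelial genes (3351.1 to 4215.8 and 3182.9 to 3863.5) had lower means in mutants. The medians of the 2 lists were -0.21 and -0.20 on the log2 scale, and Ccl21a of the lymphatic list was at 0 in all libraries. Without mutant replicate 2 they were -0.13 and -0.037, and the lymphatic median was -0.10 without control replicate 4 and -0.12 without control replicate 3. Prox1, the transcription factor of lymphatic identity, had a log2 difference of -0.33 (limma adjusted p = 0.754). The part of endothelial cells in the Mrc1 value was not tested.

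Fcrls (ENSMUSG00000015852, chromosome 3 from 87250758 to 87263738) encodes an Fc receptor-like scavenger receptor found on microglia and some tissue macrophages. It had 250.2, 245.0, 346.8 and 273.0 normalised counts in the control libraries and 383.1, 303.8, 302.0 and 441.0 in mutants. All mutants exceeded 3 of the controls, and control replicate 3 lay among the mutants. The log2 difference was 0.35 (SE 0.173, 95% interval -0.02 to 0.73, limma adjusted p = 0.767).

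The remaining pair of genes encodes lysosomal or secreted proteins of phagocytes. Cd68 (ENSMUSG00000018774, chromosome 11 from 69664213 to 69666153), a lysosomal membrane glycoprotein, had 382.3, 225.5, 262.6 and 377.1 normalised counts in the control libraries and 303.4, 269.7, 404.3 and 278.2 in mutants. The controls fell into a higher and a lower pair, with 3 of the mutants between them. Its log2 difference was 0.03 (SE 0.205, 95% interval -0.42 to 0.47, limma adjusted p = 0.986), and ran from -0.12 without control replicate 2 to 0.14 without control replicate 1.

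Lyz2 (ENSMUSG00000069516, chromosome 10 from 117277331 to 117282321) encodes the lysozyme M of phagocytes, an enzyme that cleaves bacterial cell walls. It had 122.5, 131.8, 229.8 and 292.6 normalised counts in the control libraries and 199.3, 228.1, 214.2 and 181.1 in mutants. The mutant values clustered inside a control range that was 2.39-fold wide. The log2 difference was 0.17 (SE 0.270, 95% interval -0.42 to 0.76, limma adjusted p = 0.926), and ran from -0.014 without control replicate 1 to 0.40 without control replicate 4. Its close paralogue Lyz1, which lies next to it, shares sequence with it, so reads of the pair could be hard to assign.

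With limma, 2 of the 10 genes had an unadjusted p under 0.05 and 0 passed after adjustment. edgeR and DESeq2 on the recovered reads also called 0 of the 10, and each gave 1 unadjusted p under 0.05 among the 10. With the number that opens each sample title as a replicate block, 0 of the 10 genes had an unadjusted p under 0.05. None of the 10 had groups that did not overlap, against 3.77% of all genes tested. The 95% intervals of the 10 fold differences lay between 0.644 and 1.70, so none of them reached a 2-fold change in either direction. Summed over the 10 genes, controls had 4874 ± 341 and mutants 4993 ± 459 normalised counts (SD, n = 4 each), a difference within the spread of either group.

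**Figure D2:**
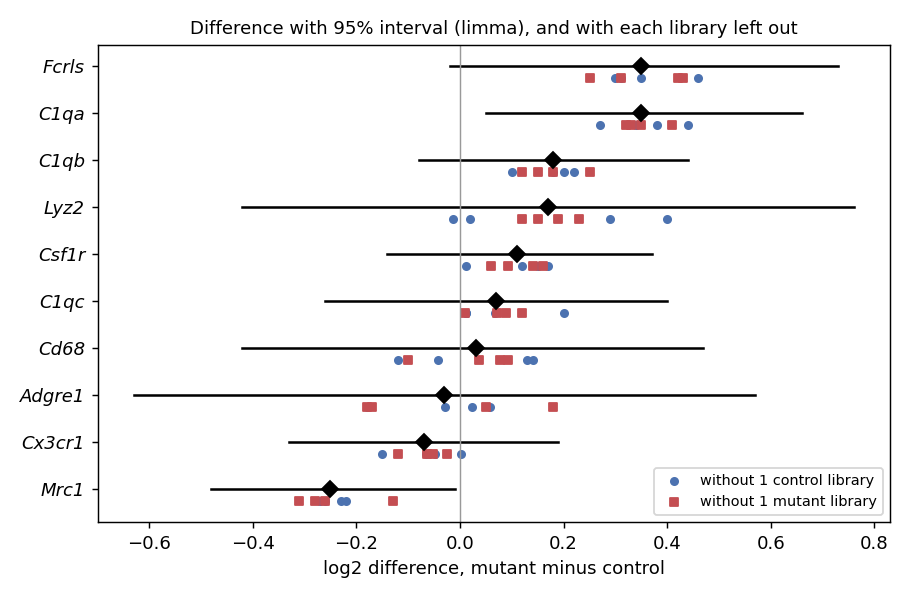
Log2 difference between mutants and controls (x axis) for each macrophage gene, as a diamond with its 95% interval, and with each library left out in turn as points beneath. Intervals of C1qa and Mrc1 exclude 0 before adjustment; those of the other 8 include it.

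The median of 0.09 over the 10 genes rested on single libraries: it was 0.016 without control replicate 2, 0.034 without mutant replicate 3 and 0.16 without control replicate 4. Control replicate 2 had the lowest value of the 8 libraries for 5 of the 10 genes, and mutant replicate 3 the highest for 4. Averaged over the genes, each centred on its own mean, the log2 level was -0.09, -0.21, 0.04 and 0.08 in control replicates 1 to 4 and 0.08, -0.09, 0.21 and -0.01 in mutant replicates 1 to 4. By this mean level the lowest library was thus a control and the highest a mutant, while the other 6 were mixed. By summed counts of the 10 genes, mutant replicate 2 (4417.9) was lowest, just under control replicate 2 (4420.2), and mutant replicate 3 (5541.0) was highest.

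Titles carry a leading number whose meaning the labels do not give, and 2 such numbers occur in both groups. In the set of control replicates 2 and 4 and mutant replicate 4, the log2 difference was 0.61 for C1qa, 0.77 for Fcrls and -0.20 for Mrc1. In the set of control replicate 3 and mutant replicates 2 and 3 it was 0.05, -0.19 and -0.24. The Mrc1 difference was similar in both sets, and that of Fcrls had opposite signs. With 3 libraries each, neither set was tested on its own.

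**Figure D3:**
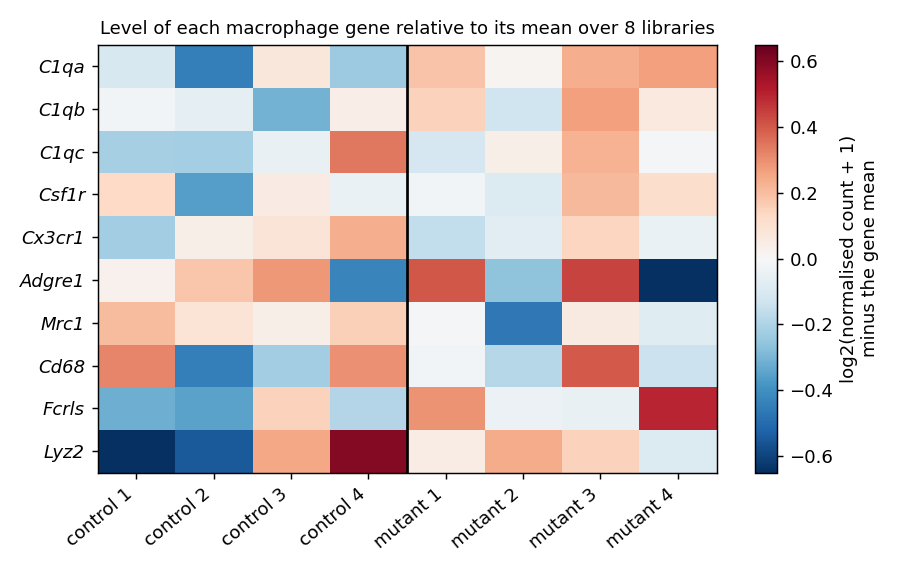
Level of each macrophage gene (rows) in each library (columns) as log2(normalised count + 1) minus the gene's mean over 8 libraries, controls left and mutants right of the line. No library is high or low for all genes; control replicate 2 and mutant replicate 3 come closest.

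The genes differed in their spread between libraries. They had from 100 reads, the lowest Adgre1 library, to 1284 reads, the highest Mrc1 library. In controls the coefficient of variation was 42.03% for Lyz2, 25.6% for Cd68 and 5.02% for Mrc1, where counting error gives 7.20%, 5.70% and 2.86%. In mutants it was 9.81% for Lyz2, 19.7% for Cd68 and 15.2% for Mrc1, where counting error gives 6.87%, 5.57% and 3.05%. The gene with the widest spread therefore differed by group, with Lyz2 widest in controls and Adgre1, at 34.7%, widest in mutants.

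Pairs of the 10 genes varied together only in part. Over the 45 pairs and 8 libraries, Pearson's r of the log2 values ran from -0.34 to 0.84 with a median of 0.19, as a description without a test. The values of a library share its size factor. C1qc with Lyz2 (0.84), C1qa with Fcrls (0.81) and C1qa with Csf1r (0.78) were the closest pairs, and Mrc1 with Fcrls (-0.34) and Mrc1 with C1qa (-0.31) the most opposed. Once each group's mean was taken off, Mrc1 stood at 0.10 with Fcrls, at 0.34 with C1qa and at 0.84 with C1qb, the last against 0.21 before. The C1q chains were not close to each other, at 0.35 for C1qb with C1qc, 0.34 for C1qa with C1qb and 0.20 for C1qa with C1qc, or 0.30, -0.12 and 0.08 with the group means taken off. The ratio of C1qa to Mrc1 counts was 0.272, 0.232, 0.345 and 0.257 in controls and 0.385, 0.471, 0.381 and 0.429 in mutants. Every mutant ratio was above every control ratio, but this pair was chosen for its opposite differences, so the ratio is a description and not a test.

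Among 13609 other genes with a mean of at least 50 normalised counts, those most like the mean level of the 10 over the 8 libraries were Fbxw17 (r = 0.960), Zdhhc14 (0.956), Slc40a1 (0.936), Mok (0.928), Wnt5b (0.923), Rbmxl1 (0.921), Smarcd3 (0.908), 9030617O03Rik (0.906), Cntrob (0.901) and Slc25a39 (0.901). Slc40a1 encodes ferroportin, the iron exporter that macrophages use when they recycle red cells. None of the 10 is on the lists of macrophage genes, and r here rests on 8 libraries and a search over all candidates.

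Per length of exon sequence, C1qb was the most abundant of the 10 messages. Its mean over 8 libraries was 541 normalised counts per kb, followed by C1qa at 372, Cd68 at 249, C1qc at 205 and Mrc1 at 179 per kb. Lyz2 (152), Csf1r (141), Fcrls (136) and Cx3cr1 (135) formed a middle group, and Adgre1 was lowest at 50.8 per kb. The order of C1qb, C1qa and Cd68 held in 8 of 8 libraries, and Cx3cr1 lay above Adgre1 in 8 of 8. Between C1qc and Mrc1 it held in 6 of 8, and among Lyz2, Csf1r, Fcrls and Cx3cr1 the neighbours changed places in 3 to 4 libraries, so these levels do not differ beyond their spread. Lengths are unions of GENCODE vM21 exons, and an isoform shorter than the union would have a higher level than given.

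**Figure D4:**
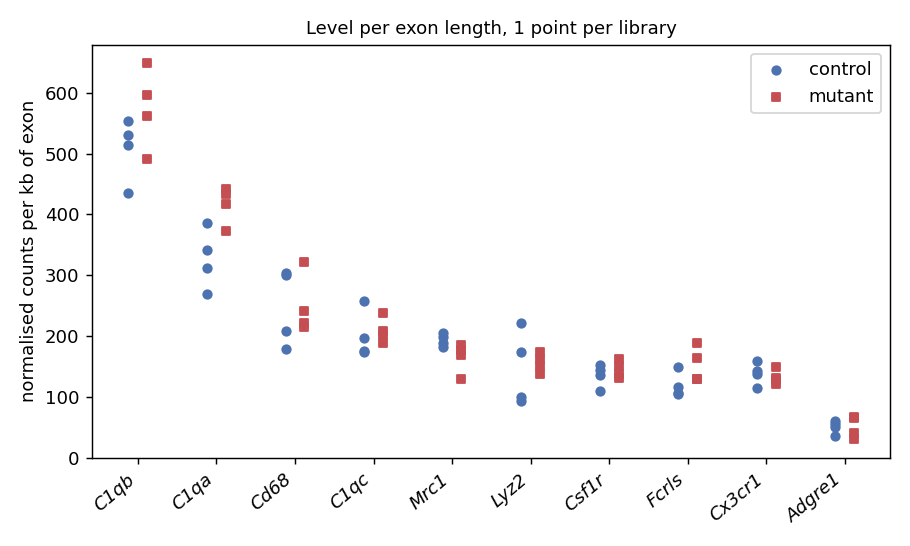
Normalised counts per kb of exon (y axis, from 0) for each macrophage gene, with 1 point per library, controls as circles and mutants as squares, ordered by mean. C1qb and C1qa lie highest and Adgre1 lowest, and Lyz2, Csf1r, Fcrls and Cx3cr1 share one range.

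Further genes of the macrophage program were also detected without passing the test. Of 29 other pan-macrophage genes, all 29 were tested, 22 had higher and 7 lower means in mutants, 0 passed the limma test over all genes and 2 had an unadjusted p under 0.05. The median log2 difference was 0.14, against -0.00 over all genes, and ran from 0.072 without control replicate 2 (0.083 without control replicate 3) to 0.23 without control replicate 4. These lists and the counts over them are descriptions. Groups did not overlap for 4 of the 29, namely Trem2, Fcgr1, Ms4a6b and Cybb, where 3.77% of all genes tested had such groups. Ms4a6b and Cybb, named after their values were seen, differed by 0.45 and 0.48. Trem2, a lipid-sensing receptor of phagocytes, had 31.9, 39.0, 31.8 and 3.90 normalised counts in the control libraries and 71.0, 55.8, 73.3 and 61.7 in mutants, so that its groups did not overlap. Its log2 difference of 1.62 (SE 0.606, limma adjusted p = 0.754) was 0.91 without control replicate 4. Fcgr1, the high-affinity receptor for immunoglobulin G, also had groups that did not overlap, with 63.9, 48.8, 55.4 and 57.0 in controls and 87.5, 76.7, 71.4 and 95.1 in mutants (log2 difference 0.54, SE 0.261, limma adjusted p = 0.758). Coro1a, an actin-binding protein of leukocytes, differed by 0.36 on the log2 scale (SE 0.153, limma adjusted p = 0.754). The most abundant genes of the list differed little, with log2 differences of -0.06 for the lysosomal protease gene Lgmn, 0.01 for Lcp1, which encodes the actin bundler L-plastin, and 0.04 for Laptm5.

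The list of C1 proteases and other classical complement genes held no gene that passed the test. Of 13 listed, 9 were tested, 6 with higher and 3 with lower means, and 0 passed the limma test or had an unadjusted p under 0.05. edgeR and DESeq2 also called 0 of the 139 genes tested from all lists other than the 10, of which limma gave 22, edgeR 20 and DESeq2 21 an unadjusted p under 0.05. Of all genes, limma gave 1093 (6.57%), edgeR 1038 and DESeq2 1106 such a p. The complement list's median of 0.17 ran from 0.10 without mutant replicate 1 to 0.29 without mutant replicate 2. The C1 protease gene C1s1 had 36.0 to 111.8 normalised counts, and Serping1, the C1 inhibitor gene, 205.3 to 470.4. C3, the central complement protein, had 5.10 to 37.9, and C4b was at 0 in 7 libraries and 2.10 in the other. C3ar1, the receptor for the C3a fragment, differed by 0.30 on the log2 scale (SE 0.218, limma adjusted p = 0.820). Itgam, which encodes the CD11b chain of a complement receptor, had 12.7 to 42.2 in controls and 8.50 to 13.1 in mutants (log2 difference -0.93, SE 0.528, limma adjusted p = 0.774). A second gene ID in the table carries the symbol Itgam, and the one with the higher counts was used. Both lie on the plus strand of chromosome 7 and overlap, the one used at 128062640 to 128118491 and the other at 128062683 to 128128160. Reads of shared sequence could be hard to assign, so the Itgam counts need not show its full level.

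Transcription factors of the myeloid lineage had mixed differences. Of 12 tested, 5 had higher and 7 lower means, with a median log2 difference of -0.07. That median changed sign to 0.048 without control replicate 1, was -0.008 without mutant replicate 2 and -0.13 without control replicate 2 or mutant replicate 1. Cebpb, a factor of inflammatory gene expression, differed by 0.44 on the log2 scale (SE 0.205, limma adjusted p = 0.754), and by 0.26 without control replicate 2. Ikzf1, the lymphoid and myeloid factor Ikaros, differed by 0.44 on the log2 scale (SE 0.247, limma adjusted p = 0.774). Maf and Runx1 were at 3800.4 to 6380.4 and 3841.5 to 4692.2 normalised counts, and both are known from skeletal and other mesenchymal cells too.

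The list of perivascular and scavenger macrophage genes was mixed. Of 7 tested, 5 had lower and 2 higher means, their median was -0.17 on the log2 scale, and 0 passed the limma test. Stab1, a scavenger receptor of macrophages and sinusoidal endothelium, differed by -0.17 on the log2 scale (SE 0.112, limma adjusted p = 0.806), Mertk, a receptor for dying cells, by -0.23 and F13a1, a coagulation factor subunit, by -0.17. Folr2, a folate receptor of resident macrophages, had 0 to 39.4 normalised counts in the control libraries and 12.3 to 34.4 in mutants (1.27 on the log2 scale, SE 0.974, limma adjusted p = 0.826). The Folr2 difference was 0.16 without control replicate 4, the library at 0. Siglec1, a sialic acid-binding receptor of macrophages, had 5.90 to 12.3 and 12.1 to 32.1 (0.94, SE 0.567, limma adjusted p = 0.787). These sparse genes had the largest differences of the list. Cd163, Timd4, Marco, Clec10a and Mgl2 were below the filter, with no library above 19.5. The list's median was 0.008 without control replicate 4, -0.037 without mutant replicate 2 and -0.069 without control replicate 1.

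Microglia genes, of the macrophages of the brain, gave no call. Of 8 tested, 6 had higher and 2 lower means, with a median log2 difference of 0.26, which was 0.13 with control replicate 4 left out, 0.15 with control replicate 3 and 0.16 with mutant replicate 1. The microglial gene Tmem119, which osteoblasts also express, had 4159.2 to 5016.6 normalised counts in the control libraries and 2853.6 to 4662.8 in mutants, which differed by -0.31 on the log2 scale (SE 0.131, limma adjusted p = 0.754). Gpr34 differed by -0.77 on the log2 scale (SE 0.477, limma adjusted p = 0.792) and Sall1, a transcription factor also found in mesenchyme, by 0.26. The other higher genes included P2ry12 (0.60), Siglech (0.33) and P2ry13 (0.25), named after their values were seen, and Trem2 of the pan-macrophage list is on this list too.

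Neutrophil, monocyte and lymphocyte markers were sparse in all libraries. Of 10 neutrophil genes 2 were tested, Mpo and Prtn3, Ly6g was at 0 in all libraries, and the list summed to 35.1 to 109.7 normalised counts in the control libraries and 44.7 to 171.9 in mutants. Of 5 monocyte genes, Ccr2 and Plac8 were tested, Chil3 was at 0, and the sums were 54.6 to 94.8 and 68.6 to 84.3. Lymphocyte genes summed to 87.5 to 138.4 and 78.0 to 123.5, with Cd3d, Ms4a1 and Klrb1c at 0 in all libraries. A value of 0 means no read was recovered in that library, which a message with up to 3 expected reads could still give. Mast cell genes summed to 357.7 to 465.5 and 321.9 to 498.9, led by Gata2, which endothelial and red cell precursors use as well. None of their tested genes passed the limma test. Lyz2 is also a gene of neutrophils, of which Ly6g was at 0 and S100a8, S100a9, Elane, Ngp, Camp, Ltf and Retnlg were below the filter. Prtn3 was detected at 7.8 to 57.5 normalised counts in controls and 34.0 to 100.3 in mutants (log2 difference 0.90). Mpo was at 5.9 to 26.6 in controls and 0 to 78.2 in mutants (-0.69). The part of neutrophils in the Lyz2 value was not tested.

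Osteoclasts descend from the same myeloid line and share Csf1r and Cd68 with macrophages. Their fusion gene Dcstamp and proton pump gene Atp6v0d2 were at 0 in all libraries, and Ocstamp, Calcr and Oscar were below the filter. Acp5, the tartrate-resistant acid phosphatase gene, had 13.8, 48.8, 65.7 and 57.9 normalised counts in the control libraries and 80.7, 68.1, 83.0 and 65.7 in mutants. Control replicate 3 equalled the lowest mutant, and the log2 difference of 0.86 (SE 0.453, limma adjusted p = 0.773) was 0.37 without control replicate 1. Of the 5 tested genes 2 had higher and 3 lower means, with a median of -0.10 that was 0.087 without mutant replicate 2, -0.027 without mutant replicate 4, -0.064 and -0.068 without control replicates 2 and 3 and -0.23 without mutant replicate 1. The values were -0.10 for Ctsk, which encodes cathepsin K, 0.09 for Itgb3, an integrin subunit, and -0.19 for Nfatc1, the master factor of osteoclasts. Mmp9, a matrix protease gene, stood at -0.35, and at 0.09 without mutant replicate 2.

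Red cell and platelet genes had higher means in most cases. Of 11 tested erythroid genes 9 had higher means in mutants, their median was 0.27 on the log2 scale (0.072 without mutant replicate 2 and 0.47 without mutant replicate 1), and their sum was 30393.5 to 40950 normalised counts in the control libraries and 28214 to 58648.8 in mutants. All 4 tested megakaryocyte and platelet genes had higher means, with values of 0.58 on the log2 scale for Itga2b (SE 0.237, limma adjusted p = 0.754) and 0.14 for Pf4, which macrophages also express. The list's median of 0.56 ran from 0.24 without control replicate 4 to 1.04 without mutant replicate 1, and was 0.35 without mutant replicate 2. Among the tissue lists, all 12 epithelial genes had higher means (median 0.23 on the log2 scale, 0.10 without mutant replicate 2 and 0.39 without mutant replicate 1), palatal mesenchyme genes were 5 higher and 6 lower (median -0.02, from -0.10 without control replicate 2 to 0.02 without mutant replicate 4) and muscle genes 3 higher and 3 lower (median -0.09, from -0.40 without mutant replicate 3 to 0.27 without mutant replicate 4), and 0 genes of these lists passed the limma test. The part of blood or epithelial content in the values of C1qa and Fcrls was not tested.

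**Figure D5:**
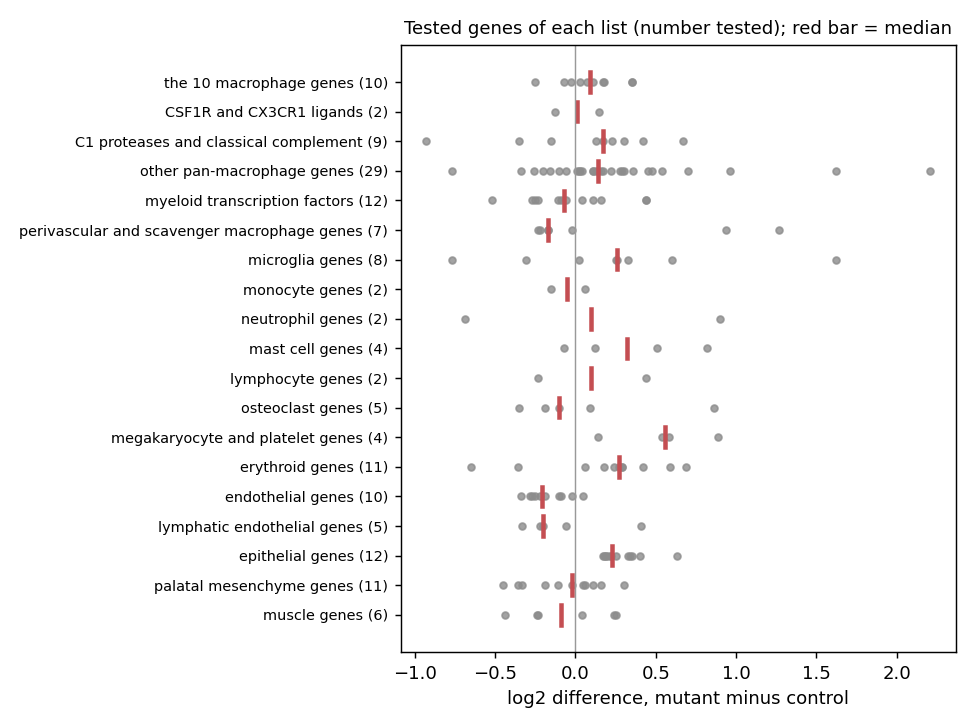
Log2 difference between mutants and controls (x axis) for the tested genes of each list, grey points, with the list median as a red bar and the number tested in brackets. The 10 macrophage genes lie within 0.35 of 0, with a median of 0.09, while endothelial genes lie mostly below 0 and epithelial genes all above it.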

How the data were processed

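RNA from 8 libraries was compared, 4 controls and 4 mutants grouped by the genotype label, with replicates numbered in accession order. The submitters' processing notes list STAR 2.7.2 and DESeq2. The sources used here do not give the counter, strand setting, annotation or build. The deposited signal values are normalised counts, made by the authors by dividing each library's reads per gene by its size factor. Of them, 99.9% to 100.0% of the values from 50 to 5000 in a library were whole reads within the rounding of 0.05. The deposited log2 values are the authors' variance-stabilised values, used in 1 alternative. Gene positions equalled those of GENCODE vM21 (GRCm38) for 95.2% of 52403 shared IDs, and for 8 of the 10 genes, not for Csf1r and Adgre1.

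Genes with at least 10 normalised counts in at least 4 libraries entered a two-sided limma test (limma 3.58.1, R 4.3.3) of log2-transformed values with a pseudocount of 1 and a trended prior variance, adjusted over all 16647 genes by Benjamini-Hochberg at 0.05. The log2 differences are on that scale, SE is limma's, and values are means ± SD. Alternatives were other pseudocounts, filters, scalings, weights, robust variances, the leading title number as a block, each library left out, edgeR 4.0.16 and DESeq2 1.42.0 on recovered reads. The fit was tested on simulated data. Members, lists and tests were chosen with earlier results of these data known. Named genes were the 10, the 3 ligands, Yap1, Wwtr1, Col2a1, the 10 most alike by correlation, and up to 3 per list by p and 3 by mean. Genes at 0 or below the filter, Lyz1 and Gm42418 are named outside that rule. A few genes that the rule names are not reported here. Promoters came from RefSeq. The symbol Ahsp on the erythroid list matched no row. Figures used matplotlib 3.10.9.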

Additional observations from a re-analysis of the deposited data

Results flagged for a closer look

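Within groups of 4, a library was set apart from the other 3 by a wide gap for 10 of 170 gene and group combinations, where chance gives about 1 in 20. None of the 10 macrophage genes was among them. Of related genes, Laptm5 was high in mutant replicate 3 at 931.0 normalised counts (others 716.5 to 728.3), the library with the highest mean level of the 10 genes, and C3ar1 was high in control replicate 3 at 168.3 (others 115.9 to 122.5). Among other blood cell genes, Mpo was at 78.2 in mutant replicate 3 (others 0 to 12.3), Plac8 at 38.0 in control replicate 3 (others 13.7 to 17.0), Ppbp at 9.70 in mutant replicate 1 (others 43.4 to 47.5) and Hba-a2 at 1685.6 in control replicate 3 (others 944.7 to 1058.2). In the rest of the tissue, Cdh5 was at 5744.7 in control replicate 1 (others 6396 to 6519.9), Kdr at 1811.5 in mutant replicate 2 (others 2397 to 2492.2), Cldn7 at 212.8 in control replicate 2 (others 440.8 to 476.3) and Pdgfra at 18926.8 in control replicate 3 (others 16528.1 to 16814.7).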

How the results depend on the processing

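Under the 20 alternatives run, 0 of the 10 genes and 0 genes of the other lists passed the threshold. C1qa, C1qb, C1qc, Csf1r, Fcrls and Mrc1 kept the sign of their differences in all 20. On the authors' variance-stabilised values C1qa stood at 0.12 and Fcrls at 0.11. The difference of Adgre1 changed sign with library weights (0.069), edgeR (0.018) and DESeq2 (0.016), ran from -0.18 to 0.18 with 1 library left out, and was -0.36 with the replicate block. Lyz2 was at -0.086 with the leading title number as a replicate block and ran from -0.014 to 0.40 with 1 library left out, Cd68 from -0.12 to 0.14 and Cx3cr1 from -0.15 to 0.0023. The cause was not tested. The median over the 10 genes ran from 0.016 to 0.16. Over all genes, limma called 4, robust variances 0, DESeq2 31, and limma 0 to 11 with 1 library left out (0 when control replicate 2, control replicate 4 or mutant replicate 3 was left out, 11 when it was control replicate 3, 8 when mutant replicate 4). The replicate block called 6 genes and 0 of the 10, and C1qa (0.33) and Mrc1 (-0.22) no longer had an unadjusted p under 0.05. Libraries with the same leading number were not shown to be pairs (r of their deviations -0.008 to 0.1 over 4 pairs across groups, against -0.085 to 0.076 over 12 other pairs). The 10 genes had 100 to 1284 reads per library, and 4 libraries a group limit the precision.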
